A study of Mus musculus with 9 samples.

Results

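Single cells of the mouse brain other than endothelial cells (ECs) were compared between aged and young adult animals, type by type. Of 43922 cells in the 3 aged and 3 young adult libraries, 31565 belonged to the 15 annotated types other than EC. Of these types, 7 held at least 10 cells in every library and entered the comparison of expression, with 28669 cells: microglia (MG, 11767 cells), astrocytes (AC, 9642), precursors of oligodendrocytes (OPC, 1745), epithelial cells of the choroid plexus (CPC, 2560), macrophages (MAC, 888), pericytes (PC, 642) and smooth muscle cells (SMC, 1425). The other 8 types, with 2896 cells, were described only by their share among all cells. The young adult group was C57BL/6J males of 2–3 months, and the aged group was C57BL/6J males of 18–20 months. Each library's label gives 3 mice. The study's text gives fewer mice per group than libraries without shared animals would need. How animals were divided among libraries is therefore unclear, libraries may share animals, and an animal cannot be followed within a library. The tissue was the whole brain without the cerebellum, from which myelin had been removed. Another group of 3 libraries, from aged males given exenatide (5 nmol/kg/day), entered the fits but not the comparison itself. These libraries took part in the choice of genes tested, the scaling, the batch terms and the estimate of the spread. Libraries carry the numbers 1, 2 and 4, and a number marks a batch of 1 library of each group. The recovered UMIs (unique molecular identifiers, each a counted RNA molecule) summed to between 2550943 and 21920194 per library, and aged library 1 was the smallest, with 938 cells.

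Microglia and macrophages are the resident immune cells of the brain tissue and of its borders, and both are known to change their expression with age. Astrocytes take up glutamate, buffer ions and contact vessels with their end-feet. Choroid plexus epithelium secretes cerebrospinal fluid, pericytes and smooth muscle cells wrap the vessels of the neurovascular unit, and precursor cells replace oligodendrocytes throughout life. RNA sums were taken over all cells of a type in a library, so a lower level per cell and fewer cells with the RNA cannot be told apart.

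The labels were checked against marker genes. Each of the 7 types carried UMIs of all its own markers, and their summed level was higher in that type than in any of the other 6 and in ECs, in every library. In AC, for example, the 7 markers summed to between 13740 and 19610 counts per 1000000 UMIs (CPM), and the highest level elsewhere was 1888 CPM, in SMC. In OPC the 8 markers summed to 3156, 5084 and 3523 CPM in young adult libraries 1, 2 and 4. In aged libraries 1, 2 and 4 they summed to 2129, 6930 and 5049 CPM. The cells annotated as OPC also held all 6 fibroblast markers (such as *Dcn* and *Slc6a13*), which summed to 1047, 1236 and 2799 CPM in young adult libraries 1, 2 and 4 and to 5954, 1351 and 751 CPM in aged ones. In aged library 1, with 16 cells annotated as OPC, the fibroblast markers summed to more than the OPC markers. Fibroblasts are not an annotated type, so the comparison with other types above does not cover them. Between any pair of the 6 libraries, 0 to 226 cell barcodes were shared.

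Differentially expressed genes (DEGs) between aged and young adult libraries were called in 6 of the 7 types, and they were few. A DEG had an adjusted *P* under 0.05 and an absolute natural-log fold change (*lnFC*) over 0.1, in an edgeR fit with the batch as a term. Values after ± are standard errors (SE) for an lnFC and gene levels in CPM are scaled within the type (TMM), while levels in ECs and summed levels of markers are unscaled CPM. Sets of 3 levels are those of young adult libraries 1, 2 and 4, followed by those of aged libraries 1, 2 and 4. There were 37 DEGs in MG (28 higher and 9 lower in aged), 31 in CPC (5 and 26), 30 in AC (18 and 12), 9 in MAC (8 and 1), 4 in OPC (all lower) and 1 in PC (lower). These were 0.359% of the 10312 genes tested in MG, 0.524% of 5912 in CPC, 0.279% of 10745 in AC, 0.375% of 2400 in MAC, 0.053% of 7552 in OPC and 0.0648% of 1543 in PC. By direction, genes called higher made up 0.272% in MG, 0.0846% in CPC, 0.168% in AC and 0.333% in MAC, and genes called lower made up 0.0873%, 0.44%, 0.112% and 0.0417%. In SMC, 0 of 6024 genes (0%) were called by edgeR, with 436 at an unadjusted *P* under 0.05, and DESeq2 also called 0. In the same edgeR fits, genes at an unadjusted *P* under 0.05 numbered 933 in MG, 537 in CPC, 1003 in AC, 144 in MAC, 489 in OPC and 88 in PC. Counts of list members at that limit, given below, are to be read beside these. Of the calls, 30 of 37 in MG, 19 of 31 in CPC and 23 of 30 in AC showed no overlap between the groups. So did 8 of 9 in MAC, 3 of 4 in OPC and 0 of 1 in PC. The same libraries gave the calls, so a lack of overlap describes a call and is no separate support for it. Its share over all genes tested was not taken.

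The number of calls depended on the comparison within batches. Without the batch term, 2 genes were called in AC (0.0186%), 2 in MAC (0.0833%) and 0 in the other 5 types (0%) by edgeR, with 72 genes at an unadjusted *P* under 0.05 in CPC, 244 in MG, 164 in OPC, 27 in PC and 149 in SMC. It also depended on the batch numbered 4. Without both its libraries the counts were 2 in AC, 2 in MG, 10 in OPC, 9 in SMC and 0 by edgeR in CPC, MAC and PC, where 94, 55 and 64 genes had an unadjusted *P* under 0.05. Without aged library 4 alone they were 4 in AC, 8 in MG, 2 in SMC, 1 in CPC and in MAC and 0 by edgeR in OPC and PC, where 267 and 72 genes had an unadjusted *P* under 0.05. Of the 112 calls, 6 held without the batch numbered 4, where 102 could be tested, and 12 held without aged library 4. Without aged library 2, SMC had 60 DEGs. The count in MG also depended on the exenatide libraries in the fit. With the 6 compared libraries alone, MG had 4 DEGs, and of its calls in the main fit 3 held and 32 did not. AC then had 40 DEGs and CPC 72. Over up to 14 alternative fits, a call held in 4 to 14, with a median of 8, and 32 of the 112 calls held in at least 10. The direction of the 112 differences was the same in every alternative that tested the gene, except that of *Mmp12* in MG without aged library 4.

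The 112 calls covered 108 genes, and 105 of them were called in 1 type. *AC149090.1* was called higher in AC and CPC, *Mt2*, a metallothionein, was called lower in AC and MAC, and *Cldn5*, the tight junction protein claudin-5 of brain endothelium, was called lower in AC, CPC and MG. No gene was called in opposite directions in different types. Only 16 of the 108 genes were tested in all 7 types and 31 were tested in 1 type, so a call in a single type does not by itself set that type apart. The map of fold changes by type shows the leading genes of each type across the others.

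**Figure D1:**
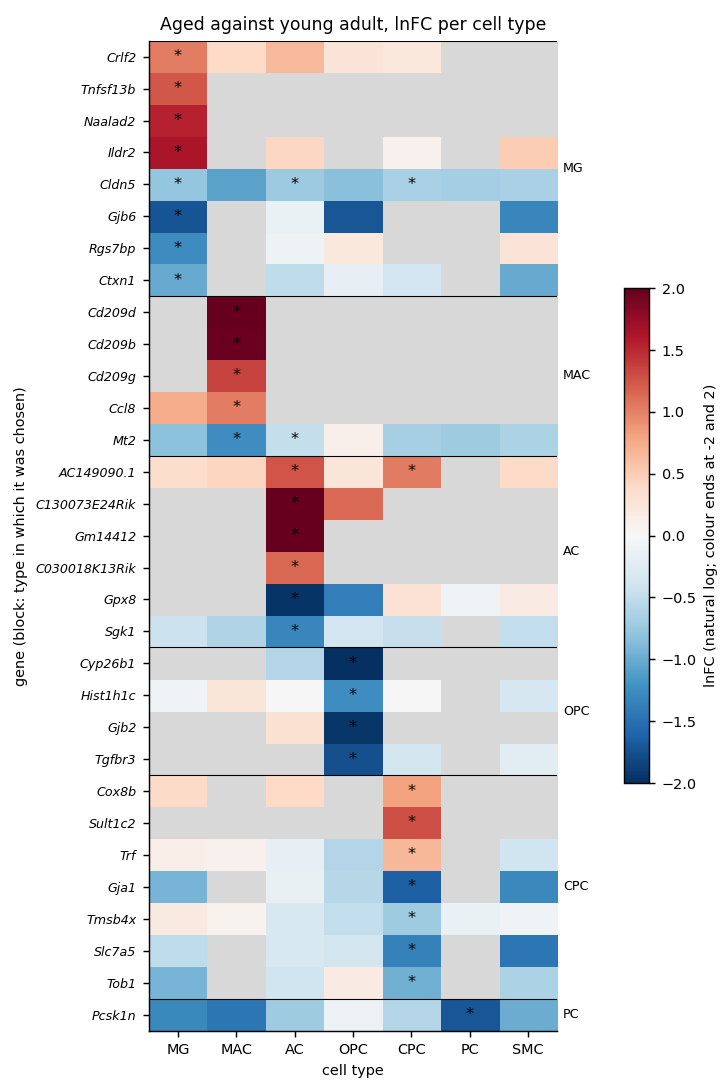
lnFC (aged against young adult, natural log) of up to 4 genes called higher and up to 4 called lower with the smallest adjusted *P* in each type (rows, grouped by the type in which they were chosen) across the 7 types (columns). Red is higher and blue lower in aged, grey was not tested, a star marks a DEG, and colours stop at −2 and 2. *Cldn5* is blue in all 7 columns and starred in AC, CPC and MG.

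The gene called in most types, *Cldn5*, is one whose RNA is most abundant in ECs. In MG, *Cldn5* stood at 97.2, 181 and 187 CPM in young adult libraries 1, 2 and 4 and at 65.3, 93.2 and 58.9 CPM in aged ones (lnFC −0.77 ± 0.13, adjusted *P* = 0.0136). The groups did not overlap in MG or in CPC, where the levels were 191, 160.3 and 175 and 89, 93.5 and 84.5 CPM (lnFC −0.66 ± 0.17, adjusted *P* = 0.0226). In AC the levels were 105, 192 and 173 and 41.7, 109 and 78.3 CPM, and the groups overlapped across batches but not within any (lnFC −0.72 ± 0.12, adjusted *P* = 0.00119). *Cldn5* was lower in aged in 3 of 3 batches in each of the 7 types, with lnFC from −1.06 in MAC to −0.64 in SMC, and it was not called in OPC, PC, SMC or MAC. The calls held in 10 of 14 alternative fits in AC and in MG and in 6 of 14 in CPC. With the 6 compared libraries alone, *Cldn5* was called in AC, CPC and MAC but not in MG. In ECs themselves it was, in unscaled CPM, 9042, 6516 and 6235 in young adult against 7633, 6500 and 5188 in aged libraries.

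Other endothelial markers lay lower in aged libraries too. Summed over 7 EC markers, the level in MG was 338, 519.8 and 805 CPM in young adult against 168, 312 and 229.9 CPM in aged libraries, with no overlap. It was lower in aged in 3 of 3 batches in all 7 types, and of 41 pairs of an EC marker and a type that were tested, 39 had an lnFC below 0 and 3 (those of *Cldn5*) were called. All 7 EC markers had UMIs in each of the 7 types.

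Microglial markers had the same pattern outside MG and MAC. In CPC, 8 MG markers summed to 345, 346 and 295 CPM in young adult against 155, 206 and 131 CPM in aged libraries, and the groups did not overlap. In OPC the sums were 623, 568 and 1305 and 227, 340.1 and 266 CPM, and in AC 430, 416 and 379 and 174, 366 and 194 CPM, again without overlap. In SMC and PC they were lower in aged in 3 of 3 batches too. MAC, which shares several of these genes with MG as its own, did not show it, and the sums were 11590, 8508 and 9408 CPM and 12620, 9224 and 9243 CPM. Astrocyte markers were lower in aged in 3 of 3 batches in CPC, MG, PC and SMC, with sums in MG of 375, 392 and 889 and 251, 324 and 517 CPM. Over the wider list of 14 homeostatic microglia genes, 0 of 13 tested in AC had an lnFC above 0 (median −0.59, 1 called), 0 of 7 in CPC (−1.01, 3 called) and 0 of 11 in OPC (−1.23), where edgeR called 0 and 9 had an unadjusted *P* under 0.05. The same list in MG is given with the MG results.

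Markers of other types did not all show this. Markers of CPC, OLG (oligodendrocytes) and Hb_EC (hemoglobin-expressing vascular cells) were lower in aged in 3 of 3 batches in 0 of the types they were summed in. Markers of PC were lower in this way in 5 of 6 types, those of mature neurons in 5 of 7, and those of MAC and of OPC in 4 of 6 each. The remaining sets, apart from those of EC, MG and AC, were lower in this way in 1 to 3 types. Of the pairs of a marker and a type tested, 3 of 8 for tanycytes, 4 of 8 for immature neurons and 11 of 24 for Hb_EC had an lnFC below 0. Against these stood 15 of 18 for CPC, 17 of 19 for OLG, 19 of 25 for PC, 15 of 20 for mature neurons, 5 of 6 for MAC and 5 of 8 for OPC. Depth moved with age too, since the median number of UMIs per cell was higher in the aged library in 19 of 21 pairs of a type and a batch. In MG it was 2085 in young adult against 3248.5 in aged library 1, 842 against 1057 in library 2 and 1190 against 2135 in library 4. In AC it was 1650 against 2427, 880 against 916 and 1054 against 1621. The part of depth per cell in the lower levels of these markers was not tested.

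**Figure D2:**
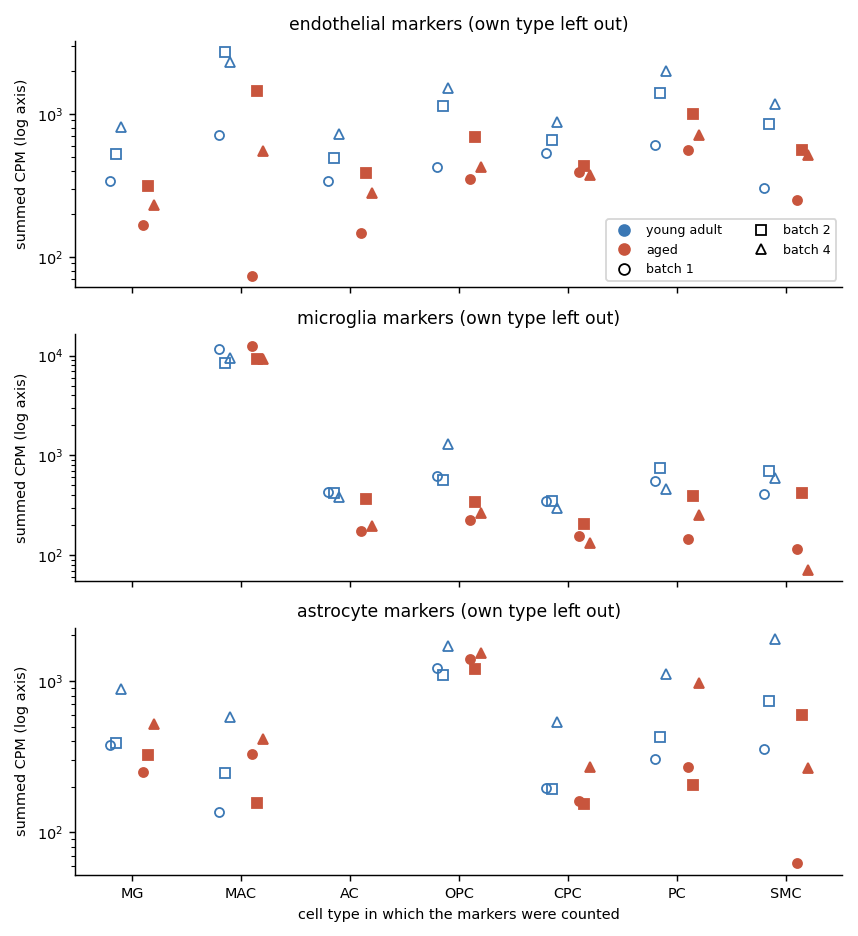
Summed level (CPM, log axis) of 7 endothelial, 8 microglia and 7 astrocyte markers in each of the other cell types (x axis). Open blue points are young adult and filled red points aged libraries, and the shape gives the batch. Endothelial markers sit lower in the aged library of every batch in all 7 types.

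All genes tested, with the markers above among them, were also grouped by their level in other types, so this grouping is not separate from the markers. Genes were set apart where another of the 16 annotated types, ECs included, had more than 10 times the pooled level of the type tested. They made up 3.75% (OPC) to 13.7% (MG) of the genes tested. Their median lnFC was −0.19 in AC, −0.21 in MG, −0.26 in CPC, −0.28 in PC, −0.32 in MAC, −0.37 in SMC and −0.42 in OPC. That of all other genes lay between −0.01 and 0.01. Between 71.5% and 83.4% of the genes more abundant elsewhere had an lnFC below 0, against 46.9% to 51.3% of the rest. Within single batches the median was below 0 in all 7 types and 3 batches, from −0.05 (AC, batch 2) to −0.76 (SMC, batch 4). This is a description across genes, which are not replicates, and no test was made of it.

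Genes of this kind made up much of what was called lower and little of what was called higher. In CPC they were 21 of 26 genes called lower and 0 of 5 called higher, in AC 9 of 12 and 3 of 18, in MG 8 of 9 and 2 of 28, in MAC 1 of 1 and 1 of 8, in PC 1 of 1, and in OPC 0 of 4. Leaving them out, the calls numbered 10 in CPC, 18 in AC, 27 in MG, 7 in MAC, 4 in OPC and 0 in PC. What part RNA of other cells, carried in droplets or attached to cells, had in these falls was not tested.

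Metallothioneins, small proteins that bind zinc and copper and are induced by metals and by glucocorticoids, were called lower in aged AC, MAC and MG. *Mt2* in AC was 4655, 4361 and 4460 CPM in young adult libraries 1, 2 and 4 against 2621, 3131 and 2632 CPM in aged ones, with no overlap (lnFC −0.48 ± 0.10, adjusted *P* = 0.02). In MAC it was 203, 309 and 328 and 40.4, 87.4 and 86.8 CPM, also without overlap (lnFC −1.25 ± 0.27, adjusted *P* = 0.0432). Its paralog *Mt1* was called in MG, without overlap but by a narrow margin, at 648, 944 and 1280 CPM in young adult against 419, 646 and 521 CPM in aged libraries (lnFC −0.58 ± 0.11, adjusted *P* = 0.0324). In CPC, *Mt2* missed the threshold (lnFC −0.67 ± 0.18, adjusted *P* = 0.0547), as it did in MG (lnFC −0.81 ± 0.17, adjusted *P* = 0.0704). The calls of *Mt2* held in 6 of 14 alternative fits in AC and in 5 of 14 in MAC, and that of *Mt1* in MG in 8. In OPC the lnFC was 0.09 for *Mt2* and −0.08 for *Mt1*, and neither passed the threshold. Over the 3 metallothioneins, which include the brain form *Mt3*, the median lnFC was −0.34 in AC, −0.39 in CPC, −0.58 in MAC, −0.58 in MG, −0.45 in PC, −0.63 in SMC and −0.08 in OPC. Over all genes tested it lay between −0.02 and −0.0016. Both genes are most abundant in AC, where *Mt1* reached 14920 CPM, and in ECs *Mt2* was 517, 393 and 407 CPM in young adult against 264, 219 and 179 CPM in aged libraries, unscaled. AC held more than 10 times the level of *Mt2* in MAC and of *Mt1* in MG, so both calls are among the genes set apart above as more abundant elsewhere.

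*Mt1* and *Mt2* lie next to each other on chromosome 8 (*Mt2* at chr8:94172664-94173568 and *Mt1* at chr8:94179082-94180327, plus strand, mm10), and since 1 or both were called lower in 3 types their upstream bases are shown. Metal response elements carry a core that is written TGCACNC or TGCGCNC. The 250 bases before each start in RefSeq (GRCm38.p6, plus strand) were searched for both on both strands, and matches are in capitals.
Mt1, chr8:94178839-94179088: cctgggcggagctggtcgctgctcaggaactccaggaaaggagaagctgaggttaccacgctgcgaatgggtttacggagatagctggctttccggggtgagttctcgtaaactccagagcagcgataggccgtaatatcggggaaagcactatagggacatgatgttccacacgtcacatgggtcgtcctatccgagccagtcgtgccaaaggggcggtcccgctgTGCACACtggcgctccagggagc
Mt2, chr8:94172368-94172617: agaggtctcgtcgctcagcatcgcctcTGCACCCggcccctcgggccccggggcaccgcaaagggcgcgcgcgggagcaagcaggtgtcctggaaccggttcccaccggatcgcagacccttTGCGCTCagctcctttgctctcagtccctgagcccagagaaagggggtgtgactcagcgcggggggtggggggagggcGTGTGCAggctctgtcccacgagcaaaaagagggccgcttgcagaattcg
The window of *Mt1* held 1 match, 23 bases before the start, and that of *Mt2* held 3, at 223, 128 and 50 bases before it, the last on the minus strand. *Mt3* held 0. Of the 32851 windows in the table, 21.4% held at least 1 match and 1.26% held 3 or more. A match is a run of letters and not a measured binding site. The RefSeq starts differ from the gene positions given above, which are from GENCODE M21. The *Mt1* window ends just inside the gene as placed there, and the *Mt2* window ends short of it. Windows set from the GENCODE starts and bases after the RefSeq starts were not searched. The numbers of matches therefore hold for these windows only and do not count the cores of the whole promoters.

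*AC149090.1*, which is named only by its clone, was the gene with the smallest *P* in AC and 1 of the 3 called in several types. In AC it was 65.6, 159.8 and 87.3 CPM in young adult against 207, 442 and 397 CPM in aged libraries, with no overlap (lnFC 1.25 ± 0.12, adjusted *P* = 1.93e-07). In CPC the levels were 11.6, 45.6 and 14.5 and 41.1, 121 and 41.3 CPM, higher in aged in 3 of 3 batches (lnFC 1.05 ± 0.21, adjusted *P* = 0.000635). Its lnFC was above 0 but not past the threshold in MAC (0.43), SMC (0.38), MG (0.34) and OPC (0.24), and it was not tested in PC. No other type held more than 10 times its level in AC or CPC, and in ECs it was 87.6, 142 and 70.1 CPM in young adult against 154, 215 and 163 CPM in aged libraries (unscaled), again without overlap.

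In microglia the genes called higher include those for receptors, cytokines and lysosomal or cytoskeletal proteins of myeloid cells. Only 3 of the MG calls, higher or lower, held with the 6 compared libraries alone. *Crlf2*, a subunit of the thymic stromal lymphopoietin receptor (chr5:109554709-109558993, minus strand), was 83.4, 110.4 and 74.7 CPM in young adult against 240, 291 and 217 CPM in aged libraries (lnFC 1.03 ± 0.10, adjusted *P* = 4.34e-05). *Tnfsf13b*, which codes for the B cell activating factor BAFF, was 15.2, 15.5 and 17.9 CPM and 62.3, 47.8 and 60.1 CPM (lnFC 1.24 ± 0.13, adjusted *P* = 4.76e-05). Neither pair of groups overlapped, and both calls held in 13 of 14 alternative fits, whereas those of *Lyz2*, *Capg* and *Gpr84* in MG held in 6. *Naalad2*, a peptidase related to glutamate carboxypeptidase II, was 4.54, 2.21 and 8.42 and 25.8, 7.96 and 39.6 CPM, with aged library 2 below young adult library 4 (lnFC 1.54 ± 0.19, adjusted *P* = 0.00033). *Ildr2*, an immunoglobulin-like receptor, was 2.17, 2.94 and 4.65 and 9.12, 11.4 and 30.1 CPM (lnFC 1.63 ± 0.21, adjusted *P* = 0.000513), without overlap, and oligodendrocytes held more than 10 times its level in MG.

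Further receptors rose in MG. *Rxrg*, a retinoid X receptor, was 0.986, 1.84 and 0.886 CPM in young adult against 6.08, 11.9 and 10.3 CPM in aged libraries (lnFC 2.11). *Pdcd1*, the immune checkpoint receptor PD-1 (lnFC 1.52), *Clec1a*, a C-type lectin (1.69), and *Ly9*, a SLAM family receptor (0.88), were low in both groups, and the highest of their levels in any of the 6 libraries was 24.9 CPM, of *Ly9*. Each of these 4 genes was higher in every aged than in every young adult library. The G-protein coupled receptors *Gpr84* (lnFC 0.55) and *Hcar2* (1.20) were called higher as well, and *Hcar2* was higher in aged in 2 of 3 batches. *Mmp12*, a macrophage metalloelastase, was called because of aged library 4, with 0, 0 and 29.7 CPM in the 3 aged and 0.394, 0 and 3.55 CPM in the 3 young adult libraries.

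Of 24 genes known from disease- and age-associated microglia, 22 were tested in MG, 21 had an lnFC above 0, and 2 were called, *Cst7* and *Lyz2*. Their median lnFC was 0.25, against −0.0016 over all MG genes. *Cst7*, the lysosomal protease inhibitor cystatin F, was 12.2, 8.46 and 17.3 CPM in young adult against 30.4, 59.7 and 45.5 CPM in aged libraries (lnFC 1.23 ± 0.18, adjusted *P* = 0.00353). *Lyz2*, lysozyme, was 503, 564 and 679.9 and 739.9, 1038 and 1042 CPM (lnFC 0.48 ± 0.10, adjusted *P* = 0.0324). *Capg*, an actin-capping protein, was not in that list and was also called, at 35.1, 37.9 and 35.7 and 60.8, 87 and 61.7 CPM (lnFC 0.64 ± 0.12, adjusted *P* = 0.0257). None of these 3 pairs of groups overlapped, and MAC held more than 10 times the level of *Lyz2* in MG. Of 14 homeostatic microglia genes, 0 were called by edgeR and 1 had an unadjusted *P* under 0.05, with *P2ry12* at lnFC −0.11 and *Tmem119* at −0.08. Monocyte markers, among them *Lyz2*, summed to 542, 569 and 749 CPM in young adult against 754, 1017 and 1117 CPM in aged MG. Most of that sum was *Lyz2* itself, and of the 6 monocyte markers tested, 4 had an lnFC below 0 (median −0.17). T and NK cell markers summed to 9.07, 25 and 12.5 and 1.52, 18.4 and 83.7 CPM. The part of such cells in the MG results was not tested.

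*Tnf*, the inflammatory cytokine, was called higher in MG as well (lnFC 0.63 ± 0.11, adjusted *P* = 0.0115), with 181, 56.7 and 188 CPM in young adult against 296, 149.5 and 293 CPM in aged libraries, where library 2 of each group was lowest. Of 18 interferon-stimulated genes, 17 were tested, 16 had an lnFC above 0 (median 0.32), 8 had an unadjusted *P* under 0.05 and 0 were called by edgeR. Over all 10312 genes tested in MG, 933 had an unadjusted *P* under 0.05 by edgeR. *Ifit1* had an lnFC of 0.05 and *Ifit2* of 0.40. For class I MHC and antigen presentation, 11 of 13 genes tested had an lnFC above 0 (median 0.14), with 4 at an unadjusted *P* under 0.05 and 0 called by edgeR. *B2m* had an lnFC of 0.29 and *H2-D1* of 0.09.

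Of the 9 genes called lower in MG, 8 were more than 10-fold more abundant in another type. They include *Gjb6*, connexin 30 of astrocytes, at 6.51, 5.89 and 20.8 CPM in young adult against 0, 1.14 and 3.96 CPM in aged libraries (lnFC −1.73 ± 0.31, adjusted *P* = 0.014), *Vtn*, vitronectin of pericytes (lnFC −0.87), and *Ctxn1*, a cortexin (lnFC −1.01). *Rgs7bp*, a binding partner of regulators of G-protein signalling, was 10.7, 16.6 and 20.2 and 1.52, 6.25 and 5.54 CPM (lnFC −1.25 ± 0.23, adjusted *P* = 0.0175). It is also among these genes, since SMC held more than 10 times its level in MG.

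In macrophages, 4 of the 8 genes called higher belonged to the *Cd209* family of C-type lectins, which bind sugars on microbes and mark perivascular and meningeal macrophages. *Cd209d* (chr8:3871824-3878555, minus strand) had 0 UMIs among 1205151 in the young adult MAC of all 3 libraries and 48 among 273266 in aged MAC. Against the limit that a count of 0 allows, 3 UMIs over the young adult group, this was at least 70.6-fold higher in aged by the pooled counts, and with the counting error of the 48 UMIs as well the lower 95% bound was 55.2-fold. The 3 aged libraries had 565, 162 and 166 CPM (adjusted *P* = 1.85e-05). *Cd209b* (chr8:3917655-3926844) was 21.6, 56.1 and 55.7 CPM in young adult against 323, 275 and 426 CPM in aged libraries (lnFC 1.98 ± 0.25, adjusted *P* = 0.000285). *Cd209g* (chr8:4134098-4137707) was 160.1, 112 and 176 and 525, 375 and 813 CPM (lnFC 1.35 ± 0.20, adjusted *P* = 0.00161), and *Cd209a* (chr8:3743397-3748984) was 199, 101 and 93.8 and 1615, 399.6 and 1366 CPM (lnFC 2.10 ± 0.30, adjusted *P* = 0.0123). Every aged library was above every young adult library for all 4. The genes are close relatives in 1 stretch of chromosome 8, and how reads that fit several of them were assigned was not examined, so the split between them is uncertain.

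Other genes called higher in MAC code for secreted and detoxifying proteins. *Ccl8*, a chemokine that attracts monocytes, was 294, 213 and 358 CPM in young adult against 484, 712 and 1145 CPM in aged libraries (lnFC 1.03 ± 0.16, adjusted *P* = 0.00294). *Mgst1*, a microsomal glutathione transferase, was 47.6, 44.9 and 65.2 and 202, 149.8 and 229 CPM (lnFC 1.29 ± 0.25, adjusted *P* = 0.0158). *Wfdc17*, a secreted protein of myeloid cells, had an lnFC of 0.67 from a high level, 3193, 2267 and 3538 CPM in the young adult libraries. *Lgals3*, galectin-3, was higher in aged in 2 of 3 batches, since aged library 1 held 0 CPM and the others 125 and 245 CPM. Monocytes held more than 10 times the level of *Lgals3* in MAC. Canonical macrophage markers did not pass the threshold, with lnFC −0.04 for *Mrc1*, −0.17 for *Pf4* and −0.28 for *Lyve1*. All 4 tested class II MHC genes had an lnFC above 0 (median 0.29) and 0 were called by edgeR, with 1 at an unadjusted *P* under 0.05. Aged MAC numbered 149 cells, of which aged library 1 held 11. Without aged library 4, MAC kept 1 DEG, and without aged library 1 it had 5. Of the 8 monocyte markers, *Plac8*, *Ly6c2*, *S100a4* and *Chil3* had 0 UMIs in MAC, and the other 4 had UMIs. Their sum was 9882, 4749 and 6400 CPM in young adult against 14050, 7729 and 9409 CPM in aged MAC, higher in the aged library of every batch. It includes *Lyz2*, at 7318 CPM pooled over MAC of the 6 libraries. What part monocytes had in the MAC results was not tested.

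**Figure D3:**
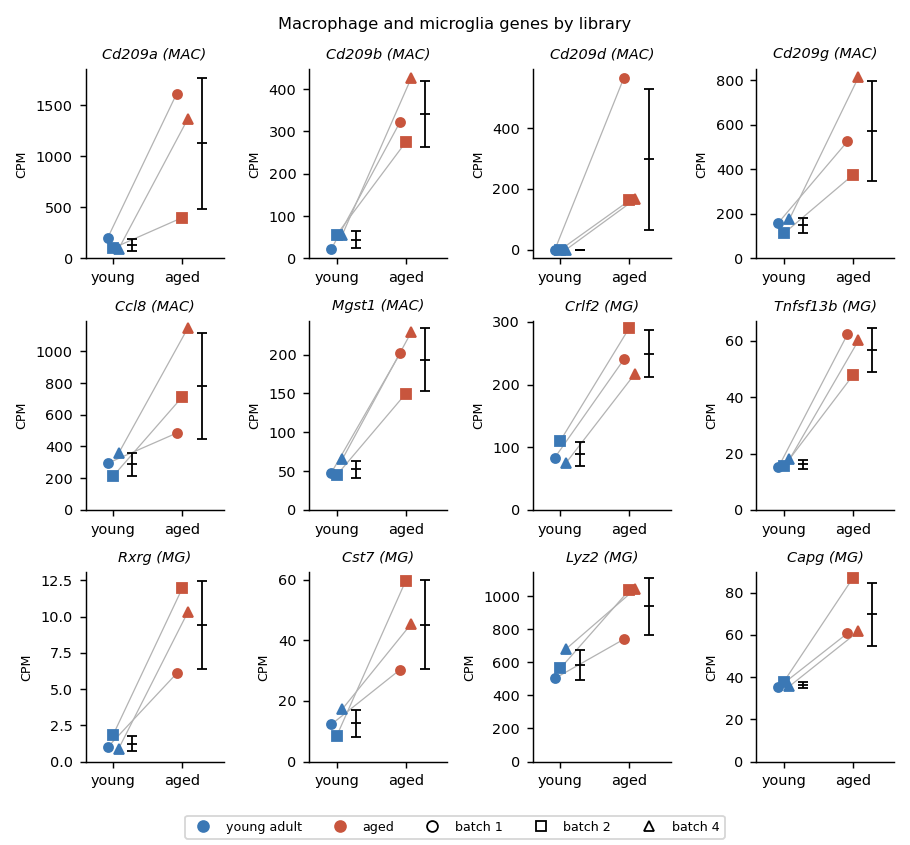
Level (CPM, linear axes) of 6 MAC and 6 MG genes in each young adult (blue) and aged (red) library. The shape gives the batch, grey lines join the libraries of a batch, and the black mark and bars are the mean ± SD of 3 libraries. All 12 genes sit higher in the aged library of every batch, and *Cd209d* lies at 0 in all young adult libraries.

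In astrocytes the genes called higher included long non-coding RNAs, a complement component and adhesion molecules. *C130073E24Rik*, a long intergenic non-coding RNA (chr8:50743291-50916997, minus strand), was 1.44, 4.32 and 1.45 CPM in young adult against 9.62, 28.6 and 25.3 CPM in aged libraries (lnFC 2.44 ± 0.26, adjusted *P* = 1.93e-07). *Gm14412*, annotated as protein coding (chr2:177314520-177324307, minus strand), had 2 UMIs in young adult and 33 in aged AC, a ratio of 40.6 in CPM (95% counting interval 10.4 to 349.5). *C030018K13Rik*, another long intergenic RNA, was 8.65, 10.4 and 24.8 and 22.5, 14.3 and 100 CPM, with overlap across batches (lnFC 1.15 ± 0.18, adjusted *P* = 0.000273). *C4b*, complement component 4, was 37.5, 49.2 and 34 and 80.2, 94.8 and 80.1 CPM with no overlap (lnFC 0.78 ± 0.13, adjusted *P* = 0.000848). It was the only member called among 9 reactive astrocyte genes tested, whose median lnFC was 0.37, and *Gfap* had an lnFC of −0.12. Also called higher were the protocadherins, which mediate contacts between neural cells, *Pcdh11x* (lnFC 0.82), *Pcdhb11* (2.15) and *Pcdhgb4* (1.48). The last pair belong to gene clusters of near-identical members, so their counts are uncertain. *Lman1*, a cargo receptor of the endoplasmic reticulum, had an lnFC of 0.57 and *Rpe65*, a retinoid isomerase, of 0.80.

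*Gpx8*, a peroxidase of the endoplasmic reticulum (chr13:113042753-113046410, minus strand), had the smallest adjusted *P* among the genes lower in aged AC. It was 35.7, 27.6 and 28.2 CPM in young adult against 3.21, 4.08 and 4.53 CPM in aged libraries (lnFC −1.97 ± 0.23, adjusted *P* = 1.91e-06), and the call held in 14 of 14 alternative fits. PC held more than 10 times its level in AC, at 519, 431 and 591 CPM in young adult against 673, 412 and 374 CPM in aged libraries, and *Gpx8* was not called there. Over the 4 other types that AC was compared with for this gene, its lnFC ranged from −1.39 to 0.29 (mean −0.25). *Gpx8* was called in none of them, so a fall in another type was neither shown nor excluded. *Sgk1*, a kinase induced by glucocorticoids, was 9.73, 20.7 and 35.4 and 4.81, 8.16 and 6.79 CPM (lnFC −1.30 ± 0.23, adjusted *P* = 0.00147), and was the only one called of 11 glucocorticoid-responsive genes tested (median lnFC −0.17). The median of that list was −0.45 in CPC, −0.37 in MG, −0.35 in MAC, −0.33 in OPC, −0.09 in SMC and −0.05 in PC. In those types edgeR called 0 of its members, with 4, 3, 0, 1, 1 and 0 at an unadjusted *P* under 0.05. *Sgk1* was more than 10-fold more abundant in MG, and so were the microglial genes *Fcrls* and *Rgs1*, which were also called lower in AC. *Adamts20*, a secreted protease, had 72 UMIs in young adult and 2 in aged AC, a ratio of 0.0684 in CPM (95% counting interval 0.00813 to 0.256). Genes of glutamate uptake and water transport did not pass the threshold, with lnFC −0.03 for *Slc1a2*, −0.04 for *Slc1a3* and 0.01 for *Aqp4*.

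In choroid plexus epithelium, 5 genes were called higher, and none of them was more abundant than 10-fold elsewhere. *Cox8b*, a subunit of cytochrome c oxidase, was 846, 413 and 607 CPM in young adult against 1150, 1559 and 1278 CPM in aged libraries (lnFC 0.80 ± 0.13, adjusted *P* = 6.8e-06). It was the only call among 91 nuclear genes of the respiratory chain and ATP synthase, of which 85 had an lnFC above 0 (median 0.12). *Sult1c2*, a sulfotransferase (chr17:53829637-53846339), was 27.9, 5.21 and 16.1 and 68.5, 29.8 and 61.7 CPM (lnFC 1.29 ± 0.23, adjusted *P* = 0.000115). Its neighbour *Sult1c1* (chr17:53961615-53990674) also rose (lnFC 1.52), and as the genes are related in sequence the division of reads between them is uncertain. *Trf*, the iron carrier transferrin, was 660.1, 298 and 327 and 1253, 527 and 710.1 CPM, higher in aged in 3 of 3 batches although the groups overlapped (lnFC 0.66 ± 0.13, adjusted *P* = 0.000813). Among 13 choroid plexus secretory and transport genes tested, 0 were called by edgeR and 1 had an unadjusted *P* under 0.05. *Ttr*, the thyroid hormone carrier transthyretin, had an lnFC of 0.05 and *Enpp2*, autotaxin, of −0.05.

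DESeq2 called 1 gene lower in CPC, and 5 of the 31 calls of edgeR in CPC held with it. By edgeR the 26 genes called lower in CPC were led by *Gja1*, connexin 43 of astrocytes, at 9.3, 16.9 and 54 CPM in young adult against 0, 4.06 and 9.02 CPM in aged libraries (lnFC −1.64 ± 0.31, adjusted *P* = 0.000235). *Tmsb4x*, an actin-binding thymosin, was 629.9, 401 and 546 and 281, 226 and 254 CPM (lnFC −0.71 ± 0.14, adjusted *P* = 0.000813), and *Slc7a5*, an amino acid transporter of the blood–brain barrier, was 23.2, 31.3 and 36.3 and 6.85, 10.8 and 7.12 CPM (lnFC −1.35 ± 0.28, adjusted *P* = 0.0011). For all 3 the groups did not overlap, and all 3 were more than 10-fold more abundant elsewhere, in AC, monocytes and ECs respectively. The microglial genes *C1qa*, *Cx3cr1*, *P2ry12*, *Csf1r*, *Tyrobp*, *Trem2* and *Fcer1g* were called lower, with lnFC from −1.30 to −0.81. Among the 5 that were not more than 10-fold more abundant elsewhere was *Tob1*, a growth repressor, at 30.2, 109.5 and 110 and 20.5, 47.4 and 30.4 CPM (lnFC −0.96 ± 0.20, adjusted *P* = 0.00175). Immediate early genes, which respond within minutes to stimuli that include cell dissociation, had 2 members called lower in aged CPC. Of 17 tested, 0 had an lnFC above 0, the median was −0.71, 11 had an unadjusted *P* under 0.05, and *Zfp36* (lnFC −1.04) and *Klf4* (−0.90) were called. Both are more than 10-fold more abundant in MAC or ECs. Library 2 of each group held the most *Fos*, with 116, 719 and 150.4 CPM in young adult against 34.2, 410.4 and 38.9 CPM in aged libraries. In the other types 0 immediate early genes were called by edgeR. Those above 0 were 3 of 17 in AC (median −0.35), 3 of 17 in MAC (−0.31), 6 of 17 in OPC (−0.29), 6 of 14 in PC (−0.12), 5 of 18 in MG (−0.09) and 11 of 17 in SMC (0.11). At an unadjusted *P* under 0.05 by edgeR were 6, 4, 1, 4, 2 and 0 of them, in that order of types.

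**Figure D4:**
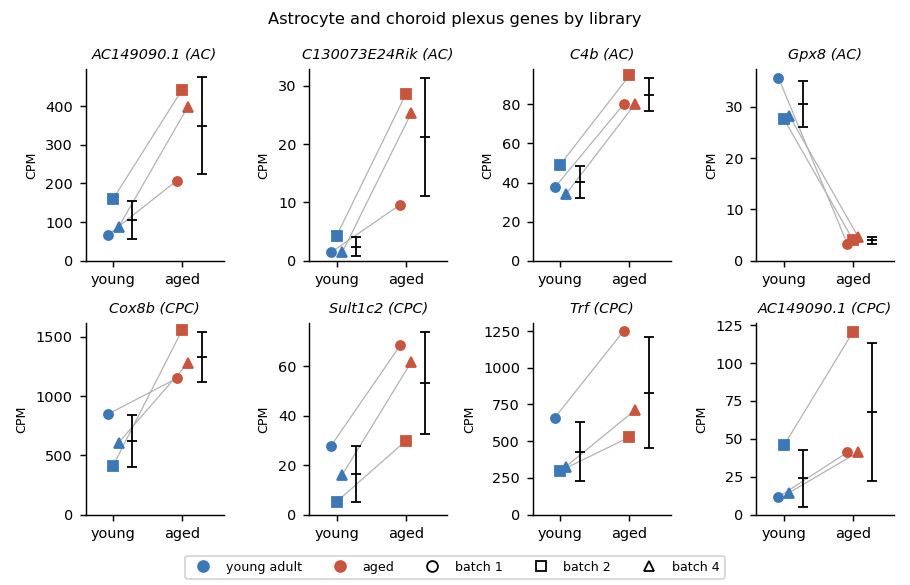
Level (CPM, linear axes from 0) of 4 AC and 4 CPC genes in each young adult (blue) and aged (red) library, with shapes for batches, grey lines joining the libraries of a batch, and the mean ± SD of 3 libraries in black. *Gpx8* is lower and the other 7 panels are higher in the aged library of every batch.

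In OPC the 4 genes called were all lower in aged. *Cyp26b1*, which degrades retinoic acid, was 4.7, 106 and 179 CPM in young adult against 0, 7.44 and 1.86 CPM in aged libraries (lnFC −3.39 ± 0.42, adjusted *P* = 0.00032), and young adult library 1 lay among the aged ones. *Hist1h1c*, a linker histone, was 136, 148 and 157 and 38.9, 37.2 and 50.2 CPM (lnFC −1.24 ± 0.20, adjusted *P* = 0.0117). *Gjb2*, connexin 26, was 35.3, 47.8 and 111 and 0, 4.96 and 16.8 CPM (lnFC −1.94 ± 0.32, adjusted *P* = 0.0117), and *Tgfbr3*, betaglycan, was 25.9, 28.3 and 122 and 0, 9.92 and 14.9 CPM (lnFC −1.76 ± 0.33, adjusted *P* = 0.0398). The groups did not overlap for these 3. *Cyp26b1* and *Gjb2* are also genes of leptomeningeal fibroblasts, whose markers varied between the OPC libraries as given above, and the part of those cells was not tested. Of 12 oligodendrocyte precursor genes, 10 had an lnFC above 0 (median 0.19), and 0 were called by edgeR, with 1 at an unadjusted *P* under 0.05. The receptor *Pdgfra* had an lnFC of 0.19 and the proteoglycan *Cspg4* of 0.33. The gene with the smallest *P* among those higher in aged was *Rims2*, a presynaptic protein (lnFC 0.82 ± 0.21, adjusted *P* = 0.255).

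Mural cells gave 1 call. *Pcsk1n*, which codes for the neuroendocrine protein proSAAS, was 26.8, 246 and 952 CPM in young adult against 49.9, 45.8 and 119.6 CPM in aged PC libraries (lnFC −1.72 ± 0.32, adjusted *P* = 0.0353). The levels differed more between batches than between ages, and in batch 1 the aged library was the higher one. Mature neurons held the highest level, more than 10-fold above PC. In SMC, *Pcsk1n* had an lnFC of −0.99 and did not pass (adjusted *P* = 0.194). The PC gene with the smallest *P* among those higher in aged was *Atp13a5*, a cation-transporting ATPase (lnFC 0.51 ± 0.13, adjusted *P* = 0.525). In SMC it was *Hes1*, a Notch target, at 721, 1219 and 1707 and 916, 1932 and 3218 CPM (lnFC 0.46 ± 0.10, adjusted *P* = 0.0871). Among the SMC genes lower in aged it was *F3*, tissue factor, at 17.5, 4.82 and 102 CPM in the young adult libraries, with 0 in all 3 aged ones (adjusted *P* = 0.0645). Of 12 contractile genes, 0 were called in SMC by edgeR and 0 had an unadjusted *P* under 0.05, with *Acta2* at lnFC 0.04 and *Tagln* at −0.07.

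Whether an age difference of 1 type differed from that of the other types was tested within libraries with limma, as the log level in the type minus the mean log level in the other types. These differences are given on the natural-log scale. They come from log CPM with a prior count, so they need not equal the gap between the lnFC of edgeR given elsewhere. Of 5900 genes tested in MG, 13 differed (0.22%), of 5946 in AC 3 (0.0505%), of 5074 in CPC 2 (0.0394%), of 1462 in PC 2 (0.137%), and in MAC, OPC and SMC 0 (0%), with 162, 451 and 518 genes at an unadjusted *P* under 0.05 (limma). Only 57 of the 112 calls could be tested in this way, since the test needed the gene in at least 3 other types. Of those, 7 differed in their own direction: *Crlf2*, *Lyz2*, *Capg* and *Rgs7bp* in MG, *AC149090.1* and *Gpx8* in AC, and *Trf* in CPC.

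In MG this difference was 0.75 ± 0.12, adjusted *P* = 0.027 for *Crlf2*, 0.71 ± 0.10, adjusted *P* = 0.0139 for *Lyz2* and 0.96 ± 0.14, adjusted *P* = 0.0221 for *Capg*. By edgeR the mean lnFC of the other types was −0.20 for *Lyz2* (from −0.57 to 0.39) and −0.23 for *Capg* (from −0.50 to 0.11). The highest value of *Lyz2*, 0.39, was that of MAC, where it was not called, against 0.48 in MG. For *Crlf2* the mean was 0.38, with an lnFC from 0.22 to 0.655 over the 4 types compared, so *Crlf2* was also higher in aged there. The difference of *Rgs7bp* was −1.37 ± 0.24, adjusted *P* = 0.0415. In AC it was 0.86 ± 0.10, adjusted *P* = 0.00573 for *AC149090.1* and −1.68 ± 0.25, adjusted *P* = 0.038 for *Gpx8*, and in CPC it was 0.96 ± 0.15, adjusted *P* = 0.0265 for *Trf*. Among the DEGs called in several types, *AC149090.1* was the one that differed between types.

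For several of the other 13 genes that differed, the larger lnFC was that of the other types. *Trem2*, a microglial receptor, had an lnFC of 0.02 in MG and a mean of −0.71 in the types compared. *Ccl3*, a chemokine, had 0.15 in MG and −0.86 elsewhere. *Slc1a2*, the astrocyte glutamate transporter, had −0.03 in AC and −0.34 elsewhere. *Tm4sf1* and *Ifitm1* in PC had 0.29 and −0.06 there, and −0.62 and −0.97 elsewhere. For none of these 5 was the difference in the type itself past the threshold. *Apoe*, a lipid carrier, had 0.32 in MG and −0.14 elsewhere.

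Gene groups spanning all types gave few calls. Of 81 to 83 cytosolic ribosomal protein genes tested, 0 were called in any type by edgeR, but their signs differed by type. In AC 1 of 82 had an lnFC above 0 (median −0.15) and 3 of 82 in OPC (−0.19), against 75 of 83 in MG (0.08), 71 of 82 in CPC (0.06) and 69 of 82 in MAC (0.11). At an unadjusted *P* under 0.05 by edgeR were 16 in AC, 14 in OPC, 7 in MAC, 2 in MG and 1 in CPC. Over all genes tested there were 1003 of 10745 in AC, 489 of 7552 in OPC, 144 of 2400 in MAC, 933 of 10312 in MG and 537 of 5912 in CPC. In PC, 20 of 81 were above 0 and in SMC 13 of 82, and no test compared the types. Interferon-stimulated genes had a median of 0.25 in AC (12 of 15 above 0), 0.39 in CPC (6 of 6) and −0.36 in OPC (3 of 11), with 0 called by edgeR and 5, 4 and 1 at an unadjusted *P* under 0.05. Extracellular matrix genes had 4 of 17 above 0 in OPC (median −0.55), where *Sparc* was 548, 699.9 and 1026 CPM in young adult against 311, 447 and 199 CPM in aged libraries and was not called (lnFC −0.96 ± 0.23, adjusted *P* = 0.353). Complement genes gave 1 call in AC (*C4b*, higher) and 1 in CPC (*C1qa*, lower), and in 4 of the 7 types the median lnFC lay between −0.66 and −0.53 (AC, CPC, PC and OPC). The list includes the microglial genes *C1qa*, *C1qb* and *C1qc*. Heat shock, cholesterol, cell cycle, cilium and neurogenesis genes gave 0 calls by edgeR, with at most 5 members of a list at an unadjusted *P* under 0.05 in any type (heat shock proteins in MG). Astrocyte homeostasis genes gave 1 call in MG (*Gjb6*) and 2 in CPC (*Gja1* and *Slc1a3*), all lower. Hemoglobin genes gave 0 calls by edgeR and 0 with an unadjusted *P* under 0.05. Mitochondrially encoded genes gave 0 calls by edgeR, with medians from −0.15 (PC) to 0.18 (MAC).

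The make-up of the libraries was compared by the share of each type among all cells. CPC was 4.16% ± 1.19 in young adult against 8.71% ± 4.07 in aged libraries (SD, n = 3), and the libraries did not overlap, with 3.75, 3.23 and 5.5% in young adult libraries 1, 2 and 4 against 6.61, 6.12 and 13.4% in aged ones. MAC was 2.16% ± 0.708 in young adult against 1.2% ± 0.17 in aged libraries, and neuronal restricted precursors (NRP) were 1.01% ± 0.865 in young adult against 0.217% ± 0.00321 in aged libraries, again without overlap. The NRP shares were 0.338, 0.7 and 1.98% in young adult against 0.213, 0.219 and 0.218% in aged libraries, from 2 to 13 cells per aged library. For these 3 types the exact two-sided permutation test gave *P* = 0.1, the smallest value that 3 against 3 libraries allow, and an adjusted *P* = 0.5 over 15 types. Within batches, CPC was higher and MAC and NRP lower in aged in 3 of 3, and the exact sign-flip test over the 3 pairs gave *P* = 0.25, the smallest it allows.

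MG made up 29.2% ± 5.27 in young adult against 23.2% ± 3.57 in aged libraries and was lower in aged in 3 of 3 batches, with overlap across batches (exact permutation *P* = 0.2). AC was 21.2% ± 7.07 in young adult against 21.9% ± 4.04 in aged libraries (exact permutation *P* = 0.9). OPC (3.5% ± 1.4 in young adult against 4.4% ± 2.35 in aged libraries), SMC (3.44% ± 0.934 in young adult against 3.22% ± 1.85 in aged libraries) and PC (1.74% ± 1.59 in young adult against 1.95% ± 1 in aged libraries) overlapped, with exact permutation *P* of 0.8, 0.9 and 0.7. Among the smaller types, ependymocytes (EPC) were lower and monocytes (MNC) higher in aged in 3 of 3 batches, at 1.45% ± 1.06 in young adult against 0.709% ± 0.621 in aged libraries for EPC and 0.35% ± 0.155 in young adult against 0.513% ± 0.139 in aged libraries for MNC (exact permutation *P* of 0.4 and 0.3). Mature neurons (mNeur) were lower in 3 of 3 batches, at 0.617% ± 0.438 in young adult against 0.466% ± 0.315 in aged libraries (exact permutation *P* = 0.6). Immature neurons (imNeur), oligodendrocytes (OLG), tanycytes (TNC) and hemoglobin-expressing vascular cells (Hb_EC) overlapped without a common direction. Tanycytes were 0 of 938 cells in aged library 1, which allows a share of up to 0.32%. A share rests on cells that survived dissociation and entered droplets, and it moves when the share of any other type moves.

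**Figure D5:**
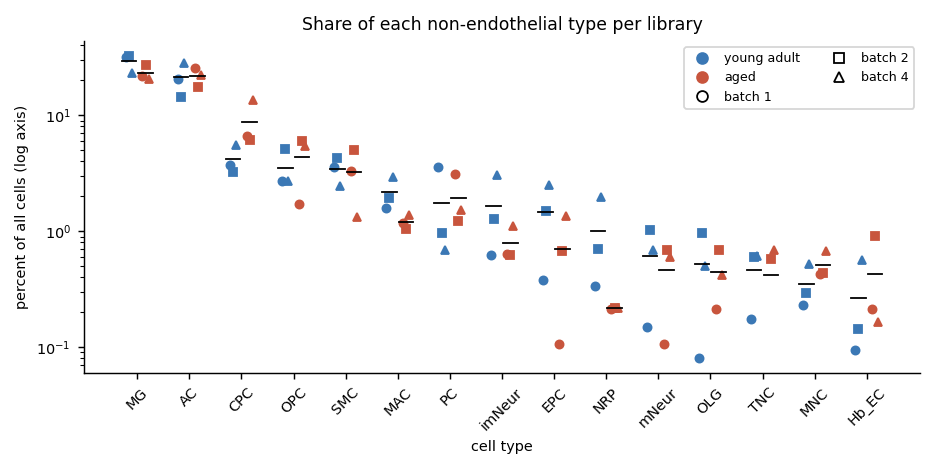
Percent of all cells (log axis) that each of the 15 non-endothelial types made up in each young adult (blue) and aged (red) library, with shapes for batches and a black line at the group mean. CPC, MAC and NRP are the types whose groups do not overlap, and the 0% of TNC in aged library 1 cannot be drawn on this axis.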

How the data were processed

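Cells from the brains of young adult and aged male mice were sequenced with the 10x Chromium 3′ v2 chemistry. The authors ran Cell Ranger v3.0.0 on mm10, kept genes found in at least 3 cells, removed cells outside their limits of UMI number, gene number and mitochondrial share, removed clusters that carried markers of several types, and used Seurat v3.0.1 to cluster and annotate the cells. The sources state no further step against doublets, and the annotation release is not given in the sources used here. The values deposited for each gene and cell are natural log values, the ln of 1 plus the count of a gene after scaling each cell to a total of 10000. The total UMI count of each cell was deposited as a count, together with the mitochondrial share, which the authors deposited as a fraction although its name says percent, and with the library, batch and cell type.

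The tests were designed for counts, which the deposited matrix does not hold directly. The counts were recovered from the natural log values and the deposited totals: 58404382 of 58404382 entries were whole numbers to within 1e-06, and in 72543 of 72543 cells their sum equalled the deposited total. The 6 young adult and aged libraries held between 938 and 15019 cells. Gene positions are from an mm10 annotation (GENCODE M21), and promoter sequences are from RefSeq. How reads that match several genes or both strands were counted was not examined.

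UMI counts were summed per type and library and tested with edgeR 4.0.16 (TMM scaling, filterByExpr, robust quasi-likelihood test, Benjamini-Hochberg over all genes tested in the type), with group and batch as terms. The 9 libraries, 3 given exenatide, shared 1 filter on low counts, the batch terms and 1 estimate of the spread, and the exenatide libraries entered no comparison. With the 6 libraries alone, 5175 genes were tested in CPC in place of 5912, and 9809 in AC in place of 10745. The study tested single cells, and here libraries are the replicates, each a pool of mice that may share animals, so a *P* measures the spread between these libraries, which may be technical in part. Differences between types were tested with limma 3.58.1 on log2 CPM (prior count 2) of a type minus the mean of the others, over at least 3 other types. Shares were compared with exact permutation tests, and intervals and limits of a count of 0 cover counting error only. Libraries of the same number share the batch the authors gave, and their deviations from the group means correlated in every type (0.158 to 0.699), so the number was kept as a block.

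Alternatives were a fit without the block, the 6 libraries alone, RLE size factors, DESeq2 1.42.0 (R 4.3.3), no filter, leaving out each library or batch, at least 30 cells per sum, and other denominators of the shares. The grouping of genes by their level in other types, with its alternatives, was chosen after seeing the data. The scripts were tested on simulated data. Genes named were those called in at least 3 types, the 4 higher and 4 lower with the smallest adjusted *P* per type, the leading genes that differed between types, and called members of the gene lists (otherwise the first ones listed). Some genes that meet this rule are not reported here. Those named beyond this were chosen after their values were seen. Members and lists were chosen with earlier results of these data known.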

Additional observations from a re-analysis of the deposited data

Results flagged for a closer look

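The results below were singled out because the age difference of a gene in 1 type differed from that of the other types by limma's test within libraries (adjusted *P* under 0.05), and each value is limma's difference between the type and the mean of the others, on the natural-log scale. In MG, 12 genes had a positive difference: *Ccl3* (1.01), *Capg* (0.96), *Cd34*, a sialomucin (0.96), *Trem2* (0.79), *Crlf2* (0.75), *Lyz2* (0.71), *Rgs10*, a regulator of G-protein signalling (0.64), *B930036N10Rik* (0.62), *Marcksl1* (0.53), *Apoe* (0.50), *Nfkbia*, an inhibitor of NF-κB (0.47), and *Tmsb4x* (0.46). *Rgs7bp* had a negative one (−1.37). In AC the differences were 0.86 for *AC149090.1*, 0.50 for *Slc1a2* and −1.68 for *Gpx8*. *Gpx8* also differed in CPC, by 1.06, where the types it was compared with include AC, and *Trf* differed there by 0.96. In PC the differences were 0.99 for *Tm4sf1* and 0.77 for *Ifitm1*. By edgeR, whose values need not subtract to those differences, the lnFC of *Cd34* was 0.23 in MG against −0.66 in the others, that of *Tmsb4x* 0.17 against −0.27, that of *Nfkbia* 0.15 against −0.37, and that of *Marcksl1* 0.31 against −0.25. Groups of 3 libraries are too small for a search for single outlying libraries.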

How the results depend on the processing

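Without the replicate block, DEGs numbered 2 in AC and in MAC and 0 in CPC, MG, OPC, PC and SMC, 0 genes were called in 3 or more types, and 4 of the 112 calls held. DEGs that differed from the other types were then 1 in AC and 0 in CPC and MG. With the 6 libraries alone, DEGs numbered 72 in CPC, 4 in MG and 2 in PC, 2 genes were called in 3 or more types, and 0 DEGs of MG differed from the other types. Then 62 calls held, 3 of them in MG, with 15 not tested. DESeq2 called 11 in AC, 5 in CPC (4 higher and 1 lower) and 0 in PC, shared 0 over 3 types, and held 59 calls. Without a filter there were 104 in AC, 24 in MAC, 209 in MG, 91 in OPC, 2 in PC and 26 in SMC, with 13 shared by 3 or more types. RLE held 111 calls and gave 2 shared genes. In the main fit, with the looser limit of 2 or more types, 3 genes were shared. Without the genes more abundant elsewhere, DEGs numbered 18 in AC, 10 in CPC and 0 in PC. Against the median of the other types, 0 DEGs of CPC and 1 of MG differed from them. With at least 30 cells per sum, AC, CPC, MG and SMC remain, with the counts unchanged by construction.

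Leaving out 1 library or batch gave 2 to 84 DEGs in AC, 0 to 136 in CPC, 0 to 12 in MAC, 2 to 119 in MG, 0 to 37 in OPC, 0 to 4 in PC and 0 to 60 in SMC, and 0 to 12 genes called in 3 or more types. DEGs that differed from the other types ranged from 0 to 2 in AC, 0 to 1 in CPC and in OPC and 0 to 6 in MG. The median lnFC of genes more abundant elsewhere ranged from −0.26 to −0.067 in AC, −0.35 to −0.15 in CPC, −0.49 to −0.10 in MAC, −0.31 to −0.067 in MG, −0.52 to −0.13 in OPC, −0.34 to −0.16 in PC and −0.79 to −0.14 in SMC. The lnFC of *Mmp12* in MG ranged from −2.21 (without aged library 4) to 2.06.

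The share differences (aged minus young adult, percentage points) kept their sign for CPC (2.21 to 5.85), MAC (−1.25 to −0.566), NRP (−1.12 to −0.302), MG (−9.01 to −4.31), EPC, MNC, imNeur and OPC. Those of AC ranged from −2.67 (−1.14 without aged library 1) to 4.39 and of Hb_EC from −0.0769 to 0.311. That of mNeur ranged from −0.386 to 0.0487 (0.0285 without aged library 1), and that of OLG from −0.293 to 0.147 (0.0382 without aged library 1). That of PC ranged from −0.364 (−0.178 without young adult library 2, −0.322 without young adult library 4) to 1.12. That of SMC ranged from −1.12 to 0.728 (0.208 without young adult library 2), and that of TNC from −0.182 to 0.171 (0.0306 without young adult library 2, 0.0328 without young adult library 4). The causes of these dependences were not tested. The smallest sums, in aged library 1, held 11 cells in MAC, 16 in OPC and 29 in PC.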
